A study of Mus musculus with 3 samples.

Results

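Mature Ccr7-positive dendritic cells were examined in single-cell 3′ RNA sequencing libraries of mouse dorsal skin, and 61 of 16604 kept cells met the rule that defined them. Cells were kept when under 10% of their unique molecular identifiers (UMIs, counted RNA molecules) were mitochondrial and when their number of genes lay above 200 and below 4000, a ceiling raised to 6000 for WT_UV. A member had at least 1 UMI of Ccr7, a UMI of at least 2 of the 5 maturation genes Fscn1, Ccl22, Il4i1, Cacnb3 and Relb, at least 3 UMIs of the MHC class II genes H2-Aa and Cd74 together, and none of the T cell genes Cd3e and Cd3d. There were 3 libraries, 1 per group: WT_Ctrl (genotype WT, no-UVB), WT_UV (genotype WT, UVB given 3 times on alternate days) and RP_UV (genotype RP, the same UVB). All came from male C57Bl/6 mice of 8 weeks with skin in telogen, the resting phase of the hair cycle, and immune cells were enriched on CD45+ magnetic beads. In the study, irradiated skin was collected on day 5, the day of the last UVB exposure. By the methods of the study, RP mice carry Rosa26-rtTA and Tre-Ptgs2, so that doxycycline switches on a rat Ptgs2 (Cox-2) gene in all tissues and not in immune cells alone. The figure legends of the study give n = 1 for WT_Ctrl and for WT_UV, and an RP male mouse as the source of RP_UV. With 1 library per group no test was possible, and each 95% interval covers counting error only. Where 3 values follow each other without a library name, their order is WT_Ctrl, WT_UV, RP_UV.

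Dendritic cells sample antigen in the skin and show it to T cells. On maturation they switch on Ccr7, the receptor for the lymph node chemokines Ccl19 and Ccl21, along with the actin-bundling protein fascin (Fscn1) and T cell attracting chemokines such as Ccl22, and then leave along lymphatic vessels for the draining lymph node. The same mature state is reached by conventional type 1 cells (marked by Xcr1 and Clec9a), conventional type 2 cells (Cd209a, Mgl2) and the Langerhans cells of the epidermis (Cd207, Epcam), and genes for antigen uptake are reduced in it while costimulatory genes, which T cells need for activation, are raised. Movement itself was not measured here.

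The libraries differed in depth. Kept cells had a median of 4246, 10557 and 3774 UMIs. The run names in the labels put WT_UV on another flow cell than the other libraries, so in any comparison with WT_UV the flow cell and the group cannot be told apart. Members held 148255, 761533 and 9142 UMIs, with a median per member of 8168, 17073 and 3171. Any pair of libraries shared between 8 and 11 cell barcodes and none of these was a member. Over all kept cells the targeted gene, Ptgs2, stood at 14.4, 117 and 486 CPM (UMIs of the gene per 1000000 UMIs), highest in RP_UV, although reads of the rat gene may be undercounted against the mouse genome.

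The first question was how many of these cells each skin held. WT_Ctrl had 17 members, WT_UV had 41 and RP_UV had 3. As shares of 5309, 5225 and 6070 kept cells these were 0.32% (0.20 to 0.512), 0.785% (0.579 to 1.06) and 0.0494% (0.0168 to 0.145), with 95% Wilson intervals. The share in WT_UV was 2.45 times that in WT_Ctrl (1.39 to 4.31). RP_UV was 15.9 times lower (4.92 to 51.2) than WT_UV and 6.48 times lower (1.9 to 22.1) than WT_Ctrl. No Wilson interval overlapped another.

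**Figure D1:**
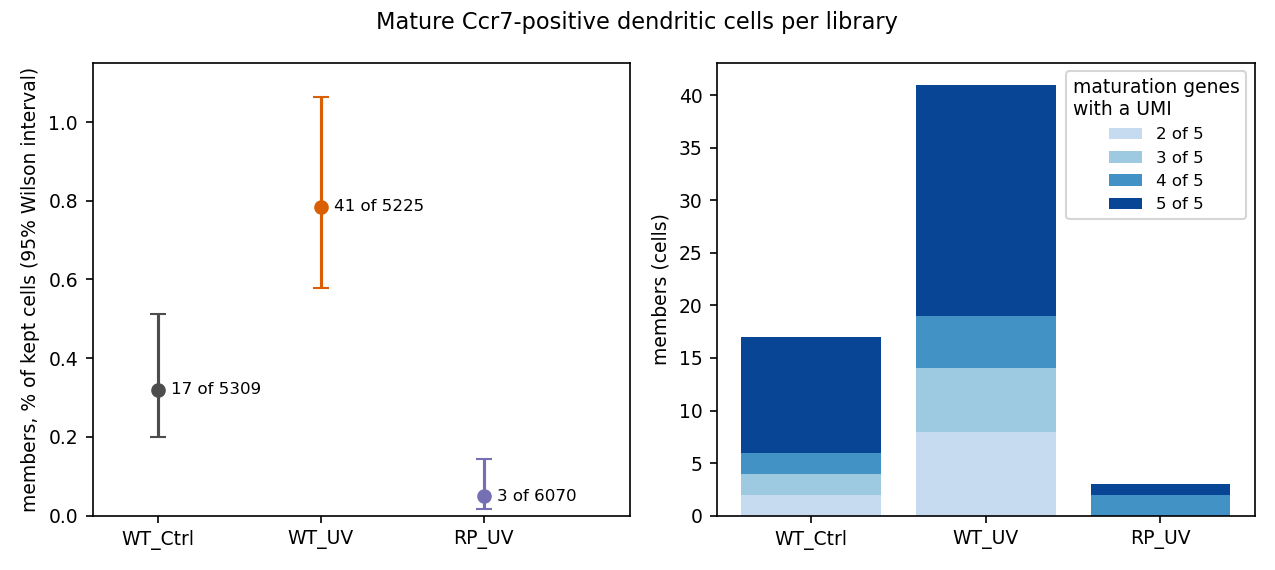
Left, members as a percentage of kept cells in each library, with the 95% Wilson interval and the counts. Right, the same members split by how many of the 5 maturation genes had a UMI, where 22 of 41 members of WT_UV and 11 of 17 of WT_Ctrl had all 5, and the 3 members of RP_UV had 4 or 5.

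A deeper library gives more cells the UMIs that the rule asks for. When kept cells were thinned to 2000 UMIs before the rule was applied, which left out 910, 429 and 1753 shallower cells, 11 of 4399 cells qualified in WT_Ctrl, against 23 of 4796 for WT_UV and 3 of 4317 for RP_UV. The order of the libraries was the same. The ratio of WT_UV to WT_Ctrl was then 1.92 (0.936 to 3.93), an interval that included 1 and covers counting error between these libraries only. The share in RP_UV was 6.9 times lower (2.07 to 23) than in WT_UV and 3.6 times lower (1.0 to 12.9) than in WT_Ctrl.

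The other dendritic cells were sparse in RP_UV as well. Cd209a cells made up 9.7%, 8.19% and 2.13% of kept cells, Xcr1 cells 0.979%, 0.555% and 0.115%, and Langerhans cells 1.38%, 0.727% and 0.165%, each class being defined by UMIs of its marker genes. Unlike the members, all 3 classes were less frequent in WT_UV than in WT_Ctrl, at ratios of 0.844 (0.747 to 0.954), 0.567 (0.36 to 0.891) and 0.529 (0.358 to 0.781). Among members and these classes together, members numbered 17 out of 657 for WT_Ctrl, 41 out of 536 for WT_UV and 3 out of 149 for RP_UV, or 2.59%, 7.65% and 2.01%. Within that dendritic pool the ratio of WT_UV to WT_Ctrl was 2.96 (1.7 to 5.14) and that of RP_UV to WT_UV 0.263 (0.0827 to 0.838), while RP_UV to WT_Ctrl came to 0.778 (0.231 to 2.62). The classes and these ratios were taken without thinning, and a cell that met more than 1 class was counted in none. How far depth shaped them was not tested. Among all cells with MHC class II UMIs, RP_UV to WT_Ctrl came to 0.365 (0.107 to 1.24). The lower share in RP_UV than in WT_Ctrl was seen against all kept cells, and its interval included 1 against dendritic or class II cells. C1q macrophages, cells rich in the complement genes C1qa, C1qb and C1qc, made up 23.7%, 27.1% and 40.2% of kept cells.

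Class II cells with Ccr7 gathered at both ends of the range of maturation genes in WT_Ctrl and WT_UV. The numbers with 0, 1, 2, 3, 4 and 5 of these genes were 11, 9, 2, 2, 2 and 11 in WT_Ctrl, 36, 26, 8, 6, 5 and 22 in WT_UV, and 6, 3, 0, 0, 2 and 1 in RP_UV. Just outside the rule, cells with Ccr7 and 1 maturation gene had 259 CPM of Ccr7 in WT_Ctrl and 172 in WT_UV. Just inside it, members with 2 had 126 and 181 CPM, while members with all 5 had 1457 and 848. These Ccr7 values chose the cells and are a description only. Class II cells with all 5 maturation genes and no Ccr7 UMI numbered 2, 1 and 0.

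The label was checked with genes that the rule did not use, although their list was chosen with earlier results of these data known. Apol7c, an apolipoprotein L family gene, and H2-M2, a nonclassical MHC class I gene, belong to the list of genes of mature dendritic cells. Of the 13 members of WT_Ctrl with 4 or 5 maturation genes, 11 had Apol7c and 7 had H2-M2. Of the 27 such members of WT_UV, 16 had Apol7c and 16 had H2-M2. Summed over these cells, Apol7c stood at 1391 and 731 CPM and H2-M2 at 1480.1 and 788 CPM in the 2 libraries. The 14 members of WT_UV with 2 or 3 maturation genes held only 8 UMIs of Apol7c, in 2 cells, and 2 UMIs of H2-M2, in 2 cells. Of the 4 such members of WT_Ctrl, 1 held 12 UMIs of H2-M2 and 9 of Apol7c, and the others held neither. The 14 cells of WT_UV had 586 CPM of the type 2 marker Cd209a and 1697 CPM of Mgl2, a lectin of type 2 cells and macrophages, against 70 and 377 CPM in the 27.

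The 18 genes of the maturation list summed to 10724 CPM in the 13 members of WT_Ctrl and to 8657 CPM in the 27 of WT_UV. In members with 2 or 3 maturation genes the sums were 2202 and 1931 CPM. The sums were thus lower in the 18 members with 2 or 3 maturation genes, but single cells overlapped, since 2 of the 14 in WT_UV had 10467 and 9871 CPM of the list. Without those 18, the counts were 13, 27 and 3, and the ratio of WT_UV to WT_Ctrl was 2.11 (1.09 to 4.09).

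Markers of other cells were sparse in most members and rich in a few. Neutrophil, NK cell, B cell, mast cell, fibroblast and endothelial markers each came to at most 47.2 CPM in any library, and no member of RP_UV had any of them. Plasmacytoid markers came to 101, 159 and 0 CPM, of which Tcf4, also found in other cells, made up 15 and 117 of 15 and 121 UMIs in WT_Ctrl and WT_UV. T cell and innate lymphoid markers came to 236, 172 and 875 CPM. Most of these UMIs, 27, 118 and 8 of 35, 131 and 8, were of Il7r, the interleukin 7 receptor, which Langerhans cells also carried at 445, 329.7 and 323 CPM.

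Macrophage markers, by contrast, summed to 661, 2712 and 2516 CPM. In WT_UV 1 member alone held 917 of the 2065 macrophage UMIs, and the median member had 449 CPM against 308 in WT_Ctrl. Keratinocyte markers summed to 4034, 91.9 and 547 CPM, and 1 member of WT_Ctrl held 548 of its 598 keratinocyte UMIs. These single members set several of the largest differences given further on.

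**Figure D2:**
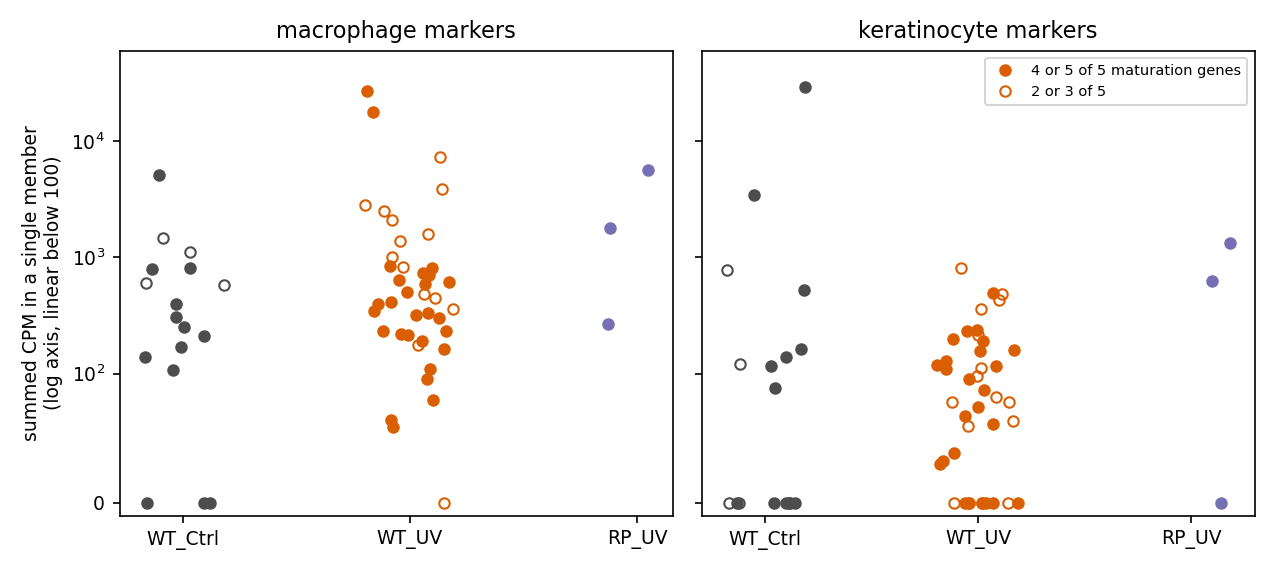
Summed CPM of the macrophage markers (left) and keratinocyte markers (right) in each single member, by library, on a log axis that is linear below 100, with filled points for members with 4 or 5 of the 5 maturation genes and open points for 2 or 3. Most members lie low, and the highest points are 1 member of WT_Ctrl for keratinocyte markers and 1 of WT_UV for macrophage markers.

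Members were next compared with Cd209a cells, the most numerous of the dendritic classes, within each library. Of 3432 genes compared, 130 (3.79%) were at least 2-fold higher in members in each of the 3 libraries and 177 (5.16%) at least 2-fold lower, on the log2(CPM + 10) scale used for all fold limits. Of the 16 compared genes of the maturation list, 13 were at least 2-fold higher in all 3 libraries and 14 were higher by any amount. The exceptions were Bcl2l14 and Marcksl1, each with 0 UMIs in RP_UV. The median of the list was 3.91, 3.44 and 4.22 on the log2 scale, beside -0.17, -0.14 and 0.03 over all genes compared. In WT_Ctrl and WT_UV all 16 were higher in members.

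The genes with the largest difference that held in all 3 libraries were Apol7c, H2-M2, Cd63, Serpinb6b, Zmynd15, Tbc1d4, Eno3, Nudt17, Samsn1 and Lad1. Apol7c stood at 1119.7, 504 and 1203 CPM in members and at 0.906, 0.553 and 0 CPM in Cd209a cells, and in RP_UV its 11 UMIs all came from 1 cell. H2-M2 had 1207, 534 and 2188 CPM in members and 4.23, 7.05 and 6.03 CPM in Cd209a cells. Both genes were nearly absent from Cd209a cells of every library. Cd63, a tetraspanin of late endosomes, had 789, 869 and 3500.3 CPM in members and 20.2, 28.9 and 63.9 CPM in Cd209a cells, but C1q macrophages also carried it at 897, 849 and 1615 CPM. Tbc1d4, a Rab GTPase-activating protein, had 506, 760.3 and 3063 CPM in members against 20.2, 28.1 and 10.9 CPM. Samsn1, an adaptor that dampens lymphocyte receptor signalling, had 634, 835 and 656 CPM in members against 45.6, 73.8 and 44.6 CPM. All 5 lay above the Cd209a cells in each library, with the 3 cells of RP_UV giving the least certain values. Fabp5, a fatty acid binding protein, had 2489, 4784 and 5579 CPM in members against 152, 456 and 604 CPM, and its level is uncertain because near-identical pseudogenes can share its reads.

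**Figure D3:**
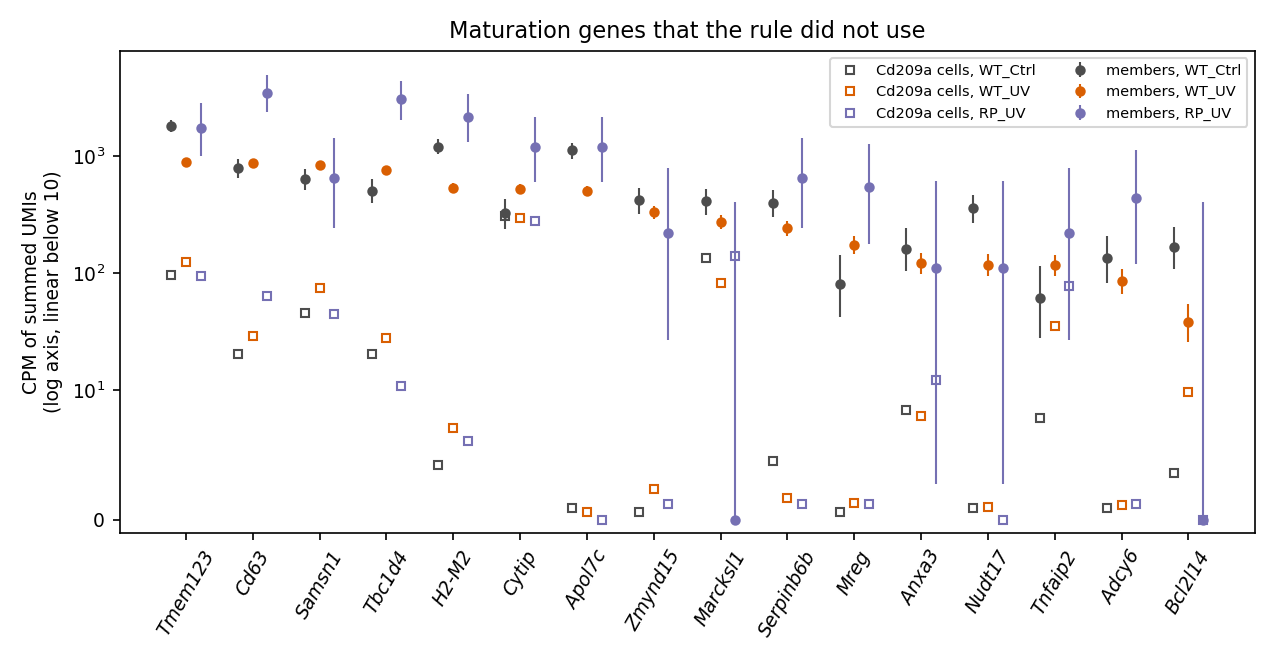
CPM of summed UMIs for the 16 compared maturation genes, on a log axis that is linear below 10, in members (filled points with 95% Poisson intervals) and Cd209a cells (open squares) of each library. Members lie above Cd209a cells in WT_Ctrl and WT_UV for every gene shown, and in RP_UV for all but Marcksl1 and Bcl2l14, where members had 0 UMIs.

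At equal depth the same genes were spread over many members. After thinning to 2000 UMIs, Apol7c was detected in 64.7% and 36.6% of members of WT_Ctrl and WT_UV, against 0.394% and 0.0749% of C1q macrophages, which should lack it. The median depth of those macrophages before thinning was 3591 and 10665 UMIs. Samsn1 was detected in 58.8% and 70.7% of members against 2.76% and 6.29% of macrophages. Tmem123, a surface glycoprotein, was detected in 76.5% and 75.6% of members against 13.3% and 18%. Without thinning, the members with a UMI numbered 12, 18 and 1 for Apol7c, 14, 36 and 2 for Samsn1 and 16, 41 and 3 for Tmem123.

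Against Xcr1 cells, 14 of 16 maturation genes were higher in members of all 3 libraries. Against Langerhans cells 10 of 16 were. Langerhans cells carried 2804, 1841 and 847 CPM of H2-M2 and 1015, 716 and 323 CPM of Tbc1d4, so members were not above the epidermal cells for H2-M2 in WT_Ctrl and WT_UV or for Tbc1d4 in WT_Ctrl. Apol7c had 0, 0 and 0 CPM in Langerhans cells, Nudt17, a nudix hydrolase, 2.56, 8.59 and 0 CPM, and Serpinb6b, a serine protease inhibitor, 0, 10.3 and 0 CPM. In members Nudt17 stood at 357, 118 and 109 CPM and Serpinb6b at 398, 242 and 656 CPM.

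The genes lowest in members against Cd209a cells were Ccl4, Mmp12, Fn1, Ube2c, Lpl, Clec4b1, Retnla, Ltb4r1, Ccr2 and Pid1. Ccr2, the receptor that draws monocytes into tissue, had 20.2, 99.8 and 0 CPM in members and 464, 553 and 294 CPM in Cd209a cells. Ccl4, an inflammatory chemokine, had 13.5, 5.25 and 0 CPM in members and 206, 161 and 395 CPM in Cd209a cells. Of 13 compared immediate early genes such as Fos and Jun, 13 were lower in members in all 3 libraries and 6 at least 2-fold lower. Of 9 MHC class II genes outside the rule, 7 were lower in all 3 libraries and 0 higher. Of 10 MHC class I genes, 8 were higher in all 3 libraries, 3 of them at least 2-fold, and 0 lower. Over all genes compared, 621 were higher and 1084 lower in all 3 libraries.

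Dendritic identity genes were at low level. Flt3, the growth factor receptor of dendritic cells, was seen in 7, 29 and 1 members at 94.4, 125 and 109 CPM, close to the 114, 90 and 28.9 CPM of Cd209a cells in the WT libraries. Zbtb46, a transcription factor of conventional dendritic cells, was seen in 2, 11 and 0 members. Batf3, another such factor, was seen in 12, 24 and 1 members at 196, 149.7 and 109 CPM, against 73.4, 38.3 and 33.8 CPM in Cd209a cells. The 7 genes of the list summed to 391, 456 and 219 CPM, and the value of RP_UV was 2 UMIs. In Cd209a cells they summed to 557, 454 and 221 CPM. Of 5 compared with Cd209a cells, 3 were lower in members in all 3 libraries, 2 of them at least 2-fold, and 1 was higher. Over all 3432 genes compared, 1084 were lower and 621 higher.

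Markers of the immature classes were looked at for traces of origin. Cd207 (langerin) was seen in 2, 11 and 1 members and Epcam, an adhesion molecule of Langerhans cells, in 6, 20 and 1. Mfge8, a bridging protein that Langerhans cells carried at 877, 1559 and 4477 CPM, was seen in 4, 24 and 3 members at 175, 351 and 3719 CPM. Cd209a was seen in 1, 18 and 0 members, Xcr1 in 0, 1 and 0 and Clec9a in 0, 1 and 0. After thinning, Epcam was detected in 5.88% (1.05 to 27) and 19.5% (10.2 to 34) of members of WT_Ctrl and WT_UV, against 0.296% and 1.65% of macrophages and 2.22% and 7.11% of Cd209a cells. Mfge8 was detected in 11.8% (3.29 to 34.3) and 26.8% (15.7 to 41.9) of members, against 1.97% and 4.04% of macrophages and 2.22% and 4.98% of Cd209a cells. Cdh1 (E-cadherin), by which Langerhans cells hold to keratinocytes, was detected in 0% (0 to 18.4) and 7.32% (2.52 to 19.4) of members, against 1.08% and 3.07% of macrophages and 3.43% and 14.9% of Cd209a cells. Cd209a was detected in 5.88% and 17.1% of members against 13.4% and 9.36% of macrophages and 83% and 76.1% of Cd209a cells. Macrophages carried the type 2 list at 4124 and 2865 CPM, so they are no clean background for Cd209a, and no origin is read from its share. The type 2 list summed to 2823 and 3794 CPM in members with 2 or 3 maturation genes, and to 434 and 1023 CPM in those with 4 or 5. In WT_UV the Epcam and Mfge8 shares were higher in members than in both other classes, and the Cdh1 share was not. Those classes left out cells that also met the Langerhans class, which asks for Cd207 with Epcam or Cdh1. Members were not filtered in this way, and its effect on the shares was not tested. The type 1 markers Xcr1 and Clec9a were at or near 0, but other genes of the type 1 list were present. That list summed to 425, 584 and 219 CPM in members and to 684, 926 and 773 CPM in Cd209a cells. Of its 3 genes compared with Cd209a cells, 1 was at least 2-fold higher in all 3 libraries and 1 at least 2-fold lower, beside 3.79% and 5.16% of all genes compared.

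What differed in members after UVB was read from WT_UV against WT_Ctrl. Of 2668 genes with a mean of at least 50 CPM over the 3 libraries, 243 (9.11%) were at least 2-fold higher in members of WT_UV and 138 (5.17%) at least 2-fold lower, with a median log2 fold of 0.04. The highest were Ifitm1, Pf4, Ccl8, C1qc, C1qa, Mrc1, Clec4n, C1qb, Rnase4 and Tcaf2, several of which are macrophage genes. The lowest were Krt77, Hspb1, Ccl24, Krt10, Calm4, Perp, Krtdap, Sbsn, Cxcl9 and Ly6g6c, most of which are keratinocyte genes.

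Single members set much of the lower end. Krt10, a keratin of the upper epidermis, had 406 UMIs in WT_Ctrl, 399 of them in 1 member, and 32 in WT_UV, spread over 24 members. Hspb1, a small heat shock protein, had 124 UMIs in WT_Ctrl, all in 1 member. Cxcl9, an interferon-induced chemokine, had 315 UMIs in WT_Ctrl, 278 of them in 1 member, and 32 in WT_UV. At the upper end, Ccl8, a chemokine of macrophages, had 8 UMIs in WT_Ctrl and 1355 in WT_UV, 1256 of them in 1 member. Of the 138 genes lower in WT_UV, 42 had over 50% of their WT_Ctrl UMIs in 1 member, and 62 were still 2-fold lower when each gene's top member in either library was left out. Of the 243 higher genes, 10 had over 50% of their WT_UV UMIs in 1 member, and 238 were still 2-fold higher. WT_Ctrl had fewer members, so leaving out a top member could take a larger part of its level. That favours genes higher in WT_UV, so the 238 and the 62 cannot be set against each other. Without members at 10000 CPM or more of macrophage or keratinocyte markers, C1qb, among the highest, had a log2 fold of -0.36.

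Ifitm1, an interferon-induced membrane protein gene, was not confined to 1 member, and it reached the level limit only through WT_UV. It had 0 UMIs in the 17 members of WT_Ctrl and 396 UMIs in 15 of 41 members of WT_UV, at most 124 in 1 member, and was at least 25.7-fold higher than the level of 3 counts in WT_Ctrl. Clec4n (dectin-2, a lectin receptor) also had 0 UMIs in WT_Ctrl, and 98 in 16 members of WT_UV, at least 6.36-fold higher. In Cd209a cells Clec4n was higher in WT_UV too, with a log2 fold of 3.24.

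The 4 antigen uptake genes that reached the level limit were each at least 2-fold higher in WT_UV, beside 9.11% of all compared genes. Their list median was 2.98 in members, 0.49 in Cd209a cells and 0.43 in C1q macrophages. Mrc1, Fcgr2b and Clec4n were under 50 CPM in WT_Ctrl, so they reached the limit only through the irradiated libraries. Among uptake genes under the limit, the scavenger receptor Cd36 had 13.5 and 3.94 CPM and the Fc receptor Fcgr3 13.5 and 72.2 CPM in WT_Ctrl and WT_UV. The mannose receptor Mrc1 had 1 UMI in WT_Ctrl and 182 in 14 members of WT_UV, a ratio of 35.4 (6.28 to 1407). Fcgr2b, the inhibitory Fc receptor, had 33.7 and 185 CPM, a ratio of 5.49 (2.3 to 17.2). Ly75 (DEC-205), an uptake receptor found on mature dendritic cells, had 87.7 and 197 CPM, in 9 and 26 members, a ratio of 2.25 (1.27 to 4.32). Macrophage markers differed in the same direction, with a list median of 2.8, and their part in the result was not tested. Without the 2 members of WT_UV and the 1 of WT_Ctrl at 10000 CPM or more of macrophage or keratinocyte markers, an alternative chosen after seeing the data, the uptake median was 1.63 and the macrophage median 0.75. After thinning to 2000 UMIs the uptake median was -0.06, so its direction depended on thinning.

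Genes of the MHC class I pathway, which presents peptides to CD8 T cells, were lower in WT_UV. The log2 fold was below 0 for 10 of 10 compared genes, against 1245 of 2668 genes in all, with a median of -0.73, and only H2-K1 was past the 2-fold limit. H2-K1 had 2543 and 1139.8 CPM, a ratio of 0.448 (0.397 to 0.507). B2m, the light chain of class I molecules, had 3838 and 1978 CPM, a ratio of 0.515 (0.468 to 0.568). Psme1 and Psme2, which form the proteasome activator PA28, had ratios of 0.552 (0.466 to 0.657) and 0.531 (0.452 to 0.625), whereas Psmb9, an immunoproteasome subunit, had 0.977 (0.719 to 1.35). Summed over the list, the median member had 13488 CPM in WT_Ctrl (range 2572 to 41005) and 8042 CPM in WT_UV (2156 to 15796), so single members overlapped. Among members with 4 or 5 maturation genes the list median was -0.58. Other cells of WT_UV had lower class I levels as well, with list medians of -0.37 in Cd209a cells and -0.34 in C1q macrophages.

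By list median, MHC class II genes outside the rule went the other way in members. All 7 compared genes had a log2 fold above 0, against 1421 of 2668 genes in all, with a median of 0.73. Ciita, the master regulator of class II transcription, was the 1 past the 2-fold limit. It was under 50 CPM in WT_Ctrl, with 5 UMIs in 3 members of WT_Ctrl and 106 in 19 members of WT_UV, a ratio of 4.13 (1.71 to 13). H2-DMa, a subunit of the peptide editor of class II molecules, had 405 and 716 CPM, a ratio of 1.77 (1.35 to 2.35). The class II chains H2-Ab1 and H2-Eb1 differed little, at ratios of 1.09 (1.02 to 1.16) and 1.02 (0.959 to 1.08). In Cd209a cells the list median was -0.07. Summed over the list, the median member had 13418 CPM in WT_Ctrl and 13649 CPM in WT_UV, so the typical sum hardly differed. The first quartile of members was 9773 CPM in WT_Ctrl and 4877 CPM in WT_UV.

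**Figure D4:**
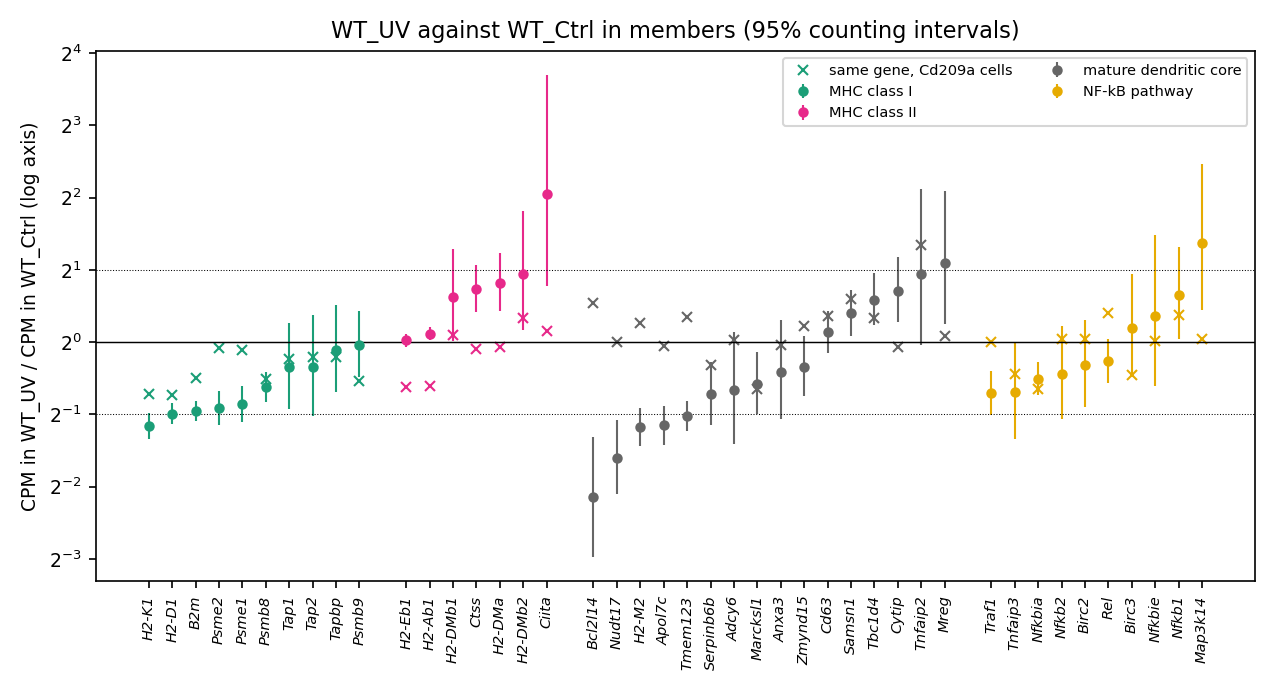
Ratio of CPM in members of WT_UV to CPM in members of WT_Ctrl on a log axis, with 95% counting intervals, for 4 gene lists, with crosses for the same ratio in Cd209a cells and dotted lines at 2-fold. All 10 class I genes lie below 1 and all 7 class II genes above it, while the maturation and NF-kB genes fall on both sides.

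Maturation genes went both ways between WT_UV and WT_Ctrl. Beside the 9.11% of all compared genes that were higher and 5.17% that were lower, of 16 compared maturation genes 5 were at least 2-fold lower in WT_UV, 1 was at least 2-fold higher and 10 lay between, with a median of -0.47. H2-M2 had a ratio of 0.443 (0.37 to 0.531), Apol7c 0.45 (0.374 to 0.544) and Nudt17 0.331 (0.233 to 0.473). Mreg, which acts in lysosome maturation, had 80.9 and 173 CPM, a ratio of 2.14 (1.19 to 4.25). Tbc1d4 had a ratio of 1.5 (1.18 to 1.94) and Cytip, which regulates the adhesion of dendritic cells to T cells, 1.63 (1.21 to 2.25). Among members with 4 or 5 maturation genes only, the ratio was 0.532 for H2-M2 and 0.526 for Apol7c, neither of them past 2-fold, and 0.371 for Nudt17.

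Of 4 compared chemokines, Ccl17, Ccl5 and Cxcl9 were at least 2-fold lower in WT_UV, beside 5.17% of all compared genes, and Cxcl9 was under 50 CPM in WT_UV. Ccl17, which shares the receptor Ccr4 with Ccl22, had 259 UMIs in 7 members of WT_Ctrl, 153 of them in 1 member, and 413 UMIs in 19 members of WT_UV, a ratio of 0.31 (0.265 to 0.364). Ccl5, which attracts effector T cells, had 2981 and 722 CPM in 10 of 17 and 11 of 41 members, a ratio of 0.242 (0.213 to 0.275), and 1 member held 456 of its 550 UMIs in WT_UV. At 2000 UMIs per cell, Ccl5 was detected in 58.8% (36 to 78.4) of members in WT_Ctrl and 19.5% (10.2 to 34) in WT_UV, against 3.25% and 1.8% of macrophages. Ccl17 was detected in 23.5% (9.56 to 47.3) and 29.3% (17.6 to 44.5), against 0.0985% and 0.599%. For Ccl5 a smaller share of members had a UMI, whereas for Ccl17 the intervals overlapped and 1 member held most of the UMIs of WT_Ctrl. Cxcl16, the fourth, had 519 and 546 CPM, a ratio of 1.05 (0.823 to 1.36). Cxcl2, a neutrophil attractant under the level limit for comparison, had 0 UMIs in WT_Ctrl and 79 in 8 members of WT_UV.

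Costimulatory genes went both ways as well. Of 8 compared, 2 were at least 2-fold higher, 1 was at least 2-fold lower and 5 lay between, beside 9.11% higher and 5.17% lower over all compared genes. Cd86, a ligand of CD28, had 101 and 278 CPM in 6 and 35 members, a ratio of 2.75 (1.63 to 5.0). Tnfrsf9 (4-1BB) had 27 and 116 CPM, under 50 in WT_Ctrl, a ratio of 4.28 (1.61 to 16.1), and its ligand Tnfsf9 337 and 88 CPM, a ratio of 0.261 (0.178 to 0.384). Cd40 and Cd83, a receptor and a surface marker of activated dendritic cells, had ratios of 0.721 (0.498 to 1.07) and 0.79 (0.634 to 0.993).

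Among 7 compared genes of the regulatory program, 1 was past the 2-fold limit, beside 5.17% of all compared genes that were lower. This was Aldh1a2, which makes retinoic acid, with 31 UMIs in 3 members of WT_Ctrl and 1 UMI in WT_UV, a ratio of 0.00628 (0.000154 to 0.0377), and it reached the level limit only through those 3 members. Cd274 (PD-L1), which restrains T cells, had 236 and 156 CPM, a ratio of 0.662 (0.451 to 0.995). Socs2, an inhibitor of cytokine signalling, had 418 and 243 CPM, a ratio of 0.581 (0.434 to 0.788), while in Cd209a cells its log2 fold was 1.27, from 3.62 and 22.9 CPM.

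In the NF-kB pathway, which drives maturation, 0 of 10 compared genes were 2-fold lower and 1 was 2-fold higher, near the 9.11% of all compared genes that were higher. This was Map3k14, the kinase NIK, with 67.5 and 175 CPM, a ratio of 2.59 (1.36 to 5.52). The signalling adaptor Traf1 had 836 and 512 CPM, a ratio of 0.612 (0.499 to 0.756), and Nfkb1, a subunit of the factor, 169 and 265 CPM, a ratio of 1.57 (1.04 to 2.49). All 17 members of WT_Ctrl and 40 of 41 of WT_UV had Traf1.

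The cytokine list summed to 897, 882 and 1641 CPM in members, and Il1b held 77, 462 and 13 of its 133, 672 and 15 UMIs. Il12b, a subunit of interleukins 12 and 23, had 15 UMIs in 4 members of WT_Ctrl and 46 in 6 members of WT_UV, 28 of them in 1 member, and 0 in RP_UV. It was at 0, 0 and 0 CPM in Cd209a cells. Il1b, an inflammatory cytokine, had 519, 607 and 1422 CPM in members, and the value of RP_UV was 13 UMIs in 1 cell. Il10 and Il27 had 0 UMIs in members of all 3 libraries, which at 3 counts allows up to 20.2, 3.94 and 328 CPM.

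Genes of prostaglandin signalling, the pathway switched on in RP mice, summed to 472, 368 and 547 CPM in members. Ptges3, a prostaglandin E synthase that also acts as a co-chaperone, held the most UMIs, 28, 130 and 4 of 70, 280 and 5, at 189, 171 and 438 CPM against 162, 178 and 233 CPM in Cd209a cells. Ptgs2 had 11 UMIs in 3 members of WT_Ctrl, 11 in 3 of WT_UV and 0 in RP_UV, where up to 328 CPM could have been missed. Cd209a cells had 35.6, 79.5 and 391 CPM of Ptgs2, and the level of RP_UV there lay above that limit. Ptger4, the prostaglandin E2 receptor EP4, had 94.4 and 138 CPM in 8 and 24 members, a ratio of 1.46 (0.833 to 2.76), and 1 UMI in RP_UV. Cd209a cells had 16.6, 26.3 and 15.7 CPM of Ptger4. Hpgd, which breaks prostaglandins down, had 5, 14 and 0 UMIs in members, and Ptgs1, the constitutive cyclooxygenase, 9, 5 and 0 UMIs. Ptger2, the receptor EP2, had 0 UMIs in members of every library.

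RP_UV held 3 members to describe, numbered here only as names. They had 3171, 2234 and 3737 UMIs and 1240, 1068 and 1553 genes, and 5, 4 and 4 maturation genes. All 3 contained Cd63 (8, 11 and 13 UMIs) and Tbc1d4 (6, 7 and 15 UMIs). H2-M2 had 12, 8 and 0 UMIs and Apol7c 11, 0 and 0. The first cell also held Mfge8 (18 UMIs), Cd207 (4 UMIs), Epcam (1 UMI) and C1qa, C1qb and C1qc (6, 7 and 2 UMIs), and the second held 15 UMIs of Mfge8. The third had 43 UMIs of Fabp5, 13 of Il1b and only 7 of Cd74. The third cell lacked both Apol7c and H2-M2, while the others carried H2-M2. None had a UMI of Ptgs2, Ccl5 or Cxcl2.

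With 9142 UMIs in all, most genes of RP_UV rested on a few counts. Against WT_UV, 1049 of 2668 genes (39.3%) were past 2-fold higher and 515 (19.3%) lower, with a median log2 fold of 0.68. Against WT_Ctrl, 1148 (43%) were higher and 542 (20.3%) lower, with a median of 0.76. Scaling on the median of ratios turned the split, to 357 higher and 845 lower against WT_UV and to 466 and 922 against WT_Ctrl. The level limit is a mean over the 3 libraries, so a gene could reach it through a few UMIs of RP_UV alone. With no minimum the median log2 folds were -0.61 against WT_UV and -0.74 against WT_Ctrl. No direction is therefore read from these counts.

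The highest genes against WT_UV (Hgf, Ttc12, Tpm2, Dzip3, Fastkd3, Hapln3, Dip2a, Lrrc28, Tlr13 and Ppat) had between 2 and 5 UMIs each in RP_UV. Against WT_Ctrl the highest included Tpm2, Dapk1, Dzip3, C1qb, C1qa, Tnfrsf9, Cd72, Cnnm4 and Dhx40, with 2 to 8 UMIs. Of these, Tnfrsf9 was seen in all 3 cells, with 1, 2 and 5 UMIs, or 27, 116 and 875 CPM over the libraries.

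The lowest genes had 0 UMIs in RP_UV. Against WT_UV they were Lgals1, Wfdc17, Lyz2, Zfp36, Ccl5, H2-DMa, Laptm5, Ifitm1, Dusp1 and Hspa1a. Lgals1, which encodes galectin-1, stood at 1498 CPM in 39 of 41 members of WT_UV and was at least 4.57-fold lower in RP_UV. Lyz2 (lysozyme) was at least 2.77-fold lower and Zfp36, an RNA decay factor, at least 2.29-fold lower. Against WT_Ctrl the lowest were Ccl5, Krt10, Cxcl9, Krtdap, Lgals7, Krt77, Lgals1, Zfp36, Calm4 and Hspb1. Ccl5 was at least 9.09-fold lower than in WT_Ctrl and Lgals1 at least 3.64-fold lower, while the keratinocyte genes and Cxcl9 rested mostly on single members of WT_Ctrl. The bounds use 3 counts over the 3 cells of RP_UV.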

How the data were processed

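Single-cell 3′ libraries of CD45+ enriched dorsal skin, 1 per group, were analysed. The files the authors deposited held unnormalized UMI counts by gene and called cell, from Cell Ranger 6.1.1 with mm10 (annotation release not given in the sources used here). Depth was 34985549, 82722013 and 37689836 UMIs in WT_Ctrl, WT_UV and RP_UV. Groups came from the sample labels, and cells were filtered with the limits of the study. No doublet step is given in the sources used here and none was applied, except as an alternative (cells with the top 5% of Scrublet scores left out, scanpy 1.11.5). Members and gene lists were chosen with earlier results of these data known.

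UMIs were summed over the members of a library and given as CPM with exact Poisson intervals. Ratios of CPM have exact conditional intervals, and shares have Wilson intervals with log-ratio intervals for their ratios. Fold limits used log2 of CPM plus 10, over genes with a mean of at least 50 CPM. No test was run, since each group had 1 library and cells are not replicates. Comparison classes excluded members, Ccr7 and, except for macrophages, Cd3e and Cd3d: Cd209a cells (at least 2 UMIs), Xcr1 cells (Xcr1 and Clec9a at least 2) and Langerhans cells (Cd207 at least 2, with Epcam or Cdh1), all with class II UMIs, and C1q macrophages (at least 5 C1q UMIs). A cell of more than 1 class went to none.

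Named genes were the 10 highest and 10 lowest of each comparison (against Cd209a cells, by the least favourable library), without rule genes, mitochondrial, ribosomal, haemoglobin, Gm and Rik genes, plus the members of 28 fixed lists, and 1 gene so named is not reported here. Of the listed genes, 2 were not analysed here. Computations ran in Python 3.11.15 with numpy 2.4.6 and scipy 1.17.1, and the fold script was tested on simulated data. Alternatives varied the cell filters, the rule, thinning to 2000 UMIs, scaling, the pseudocount, the level limit and the members left out.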

Additional observations from a re-analysis of the deposited data

Results flagged for a closer look

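Some cells outside the members met all of the rule or all of it but the T cell condition, most of them in WT_UV. Among barcodes removed by the mitochondrial and gene number limits, 8 of 924 in WT_UV met the rule, against 1 of 668 in WT_Ctrl and 0 of 1170 in RP_UV. Among kept cells, 14 in WT_UV met every condition but had a UMI of Cd3e or Cd3d, against 1 in WT_Ctrl and 0 in RP_UV. Of these 14 cells, 8 had 2 maturation genes and 4 had all 5, 12 had Cd3g, 11 had the T cell receptor gene Trbc2, 10 had Itgae, 5 had H2-M2 and 3 had Apol7c. Their median depth was 25678 UMIs, against 17073 for members of WT_UV. Whether they were single cells or doublets was not tested.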

How the results depend on the processing

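No paired analysis was possible because each group had 1 library and no result came from a test, and for the same reason no replicate could be left out. The ratio of member shares kept its direction in all 13 alternatives, at 1.92 to 3.1 for WT_UV to WT_Ctrl, 0.0253 to 0.174 for RP_UV to WT_UV and 0.0729 to 0.365 for RP_UV to WT_Ctrl. Shares moved beyond their interval in RP_UV to 0.0165% with at least 2 Ccr7 UMIs, in WT_UV to 0.48% after thinning and 0.517% with at least 4 of 5 maturation genes, and among class II cells to 0.566%, 1.19% and 0.207%. For WT_UV against WT_Ctrl, thinning gave 735 genes higher and 398 lower, a minimum of 20 CPM 419 and 276, and no minimum 1064 and 662. In RP_UV, the counts lower against WT_UV and WT_Ctrl were 1047 and 1058 with at least 2 Ccr7 UMIs, 1704 and 1746 at 20 CPM and 4315 and 4016 with no minimum. Median-of-ratios factors gave 357 higher and 845 lower against WT_UV, and 466 and 922 against WT_Ctrl.

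List medians for WT_UV against WT_Ctrl after thinning were -1.23 for MHC class I, -0.94 for chemokines, -1.4 for cytokines, 0.75 for immediate early genes and -0.42 for keratinocyte markers, and antigen uptake turned to -0.0614. The chemokine median was -2.81 below 4000 genes, -2.99 without C1q-rich members, -2.99 without high Scrublet scores, -1.0 at 20 CPM, -0.48 with no minimum, -1.58 with at least 4 of 5, and -3.13 without marker-rich members. Cytokines came to -0.97 with at least 4 of 5. Antigen uptake came to 1.51 with no minimum, 1.43 without C1q-rich and 1.63 without marker-rich members. Macrophage markers came to 0.45 below 4000 genes, and to 1.16 and 0.75 without those members. Keratinocyte markers came to -0.83 with no upper gene limit and -1.81 without marker-rich members. The class I median ranged over -1.23 to -0.56 and the class II median over 0.23 to 0.94.

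Some named genes turned in direction. C1qb became -0.40 below 4000 genes and -0.36 without marker-rich members, where Hspb1 became 0.65, Calm4 0.0697 and Ly6g6c 0.65. Krtdap became 0.28 with no upper gene limit. After thinning Hspb1 became 2.42, Krtdap 2.42, Krt10 1.67 and Krt77 1.67. With at least 2 Ccr7 UMIs, which left 1 cell in RP_UV, C1qa became -1.46 against WT_Ctrl, and Dzip3 -0.79, Lrrc28 -0.37, Tlr13 -0.37 and Ppat -0.91 against WT_UV, where Hapln3 and Lrrc28 became -0.20 without C1q-rich members. The settings of at least 4 of 5 genes, no marker-rich members, no Ccr7 requirement and T cell genes allowed were chosen after seeing the data. The cause of these changes was not tested beyond the members removed. Depth limits RP_UV most, where 3 counts are 328 CPM.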

Other observations

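Cell cycle genes were low in members. All 4 compared genes were lower than in Cd209a cells in the 3 libraries, none of them by 2-fold in all 3, with list medians of -0.91, -0.55 and -3.73 on the log2 scale, and in RP_UV the list held 1 UMI. Mki67, a marker of cycling cells, had 10 UMIs in 3 members of WT_Ctrl and 38 in 6 of WT_UV. Members with 2 or 3 maturation genes had more of the list than those with 4 or 5, at 1016 against 70.9 CPM in WT_Ctrl and 671 against 185 in WT_UV, and 1 member of each library held most of these UMIs in the former (91.7% and 59%). Interferon-stimulated genes summed to 418, 274 and 109 CPM in members, in 15, 35 and 1 of them, and the value of RP_UV was 1 UMI. In Cd209a cells they summed to 376, 305 and 223 CPM. Within the list, Ifit1 and Ifit3 had 0 UMIs in members of all 3 libraries and Isg15 had 54, 35.5 and 0 CPM. Of 12 compared immediate early and stress genes, 3 were at least 2-fold higher in WT_UV than in WT_Ctrl and 0 at least 2-fold lower. Over all compared genes these shares were 9.11% and 5.17%. The list median was 0.05, with 6 genes above and 6 below 0. In members with 4 or 5 maturation genes the list summed to 4174 CPM in WT_Ctrl and 4151 CPM in WT_UV. Among the 3 higher genes, the transcription factor gene Fos had a ratio of 2.37 (1.75 to 3.28). The inducible heat shock genes Hspa1a and Hspa1b were higher in members of WT_UV than of WT_Ctrl, at ratios of 2.32 (1.57 to 3.54) and 2.7 (1.77 to 4.32), with UMIs in 31 and 28 of 41 members.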
